A study of Rattus norvegicus with 16 samples.

Results

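A set of 10 genes of bone morphogenetic protein (BMP) signalling was followed in the hearts of rat pups aged 2 days. They comprise 3 ligands (Bmp10, Bmp2 and Bmp4), 3 receptors (Bmpr1a, Bmpr2 and Acvrl1), the inhibitor Smad6 and the target genes Id1, Id2 and Id3. The genes were named from the pathway with earlier results of these arrays known, and the probe set of each was chosen by brightness, as the single-symbol probe set with the highest mean over the 16 arrays. Each of the 10 genes had exactly 1 such probe set, so no choice between probe sets arose, and 14324 genes on the array had at least 1. No filter on low values was applied, so all 10 were measured and tested.

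There were 4 groups of 4 pups, profiled on Affymetrix Rat Gene arrays with 1 heart per array. They were females and males of the Hypertrophic Heart Rat (HHR), a strain with inherited polygenic cardiac hypertrophy whose hearts are labelled hypertrophic, and females and males of its control strain, the Normal Heart Rat (NHR), whose hearts are labelled normal. The labels give no drug or other intervention for any group, and all were killed at the same age, so strain and sex are the only factors in the labels. The series' description has ventricles separated from atria, whereas a sample protocol names the whole heart, and litters are not given, so litter and strain cannot be told apart.

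BMPs are secreted dimers of the TGF-beta superfamily. They bring together a type I receptor kinase, such as Bmpr1a or Acvrl1, and a type II receptor kinase, such as Bmpr2, on the cell surface. The activated type I receptor phosphorylates Smad1, Smad5 and Smad9, which enter the nucleus with Smad4 and switch on the Id genes. The same signal induces Smad6 and Smad7, which feed back to inhibit the pathway. In the mouse, Bmp10 is made by the trabecular muscle of the embryonic heart and later mainly by the atria, and it is needed for the growth of trabeculae, while Bmp2 and Bmp4 act in valve and septum formation.

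All values below are deposited log2 expression values made with RMA, so a difference of 1 is a doubling. Array medians were close (7.19 to 7.28), and no pair of arrays correlated below 0.990 across probe sets. Probe sets differ in brightness for reasons of their own, so levels are compared between arrays for a given gene and not between genes. A component that held 26.7% of the spread inside the groups split the NHR arrays. Scores were 14.4 for NHR female 3, 15.1 for NHR female 4 and 22.6 for NHR male 4. On the other side were NHR female 1 (-16.9), NHR female 2 (-12.6), NHR male 1 (-11.1) and NHR male 2 (-13.2). NHR male 3 scored 1.74, and HHR arrays ran from -3.72 to 7.48. Scores are taken from the group means, so they do not say which side is unusual. The 3 NHR arrays with the highest scores are called apart below. Results that rest on these 3 NHR arrays are given with and without them. Without them NHR female 1 and NHR female 2 are the only NHR females. The cardiac muscle genes Actc1 (mean 14.24 in HHR and 14.22 in NHR) and Tnnt2 (13.71 in HHR and 13.81 in NHR) were measured in both strains, and a marker at 0 cannot be recognised on this scale. They are the 2 of 6 listed cardiomyocyte genes that did not pass for strain, and the other 4 were lower in HHR.

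The start regions of the genes on which the results turn are shown first, as a description. Sequence outside the start regions was not searched, so control of transcription from elsewhere is not covered. RefSeq's table of start regions on assembly GRCr8 held 7 of the 10 genes (Bmp10, Bmp4, Bmpr1a, Bmpr2, Id1, Id2 and Id3). Each window holds 300 bases, from 250 before to 50 after the annotated start. It was searched on both strands for GGCGCC, a GC-rich element bound by BMP-activated Smads. A variant of that element, GGAGCC, was searched too. The search also covered CAGAC, which holds a half-site of Smad4. The last motif was AGATAA, a site of GATA factors. No matches of different motifs overlapped in the windows shown. Capitals mark every match. Bmp10 and Bmp4 are the genes with the largest strain differences, Id1 is the classic target, and Smad7 is the feedback inhibitor of the wider list whose window held GGCGCC.
Bmp10 (chr4:121429125-121429424, plus strand): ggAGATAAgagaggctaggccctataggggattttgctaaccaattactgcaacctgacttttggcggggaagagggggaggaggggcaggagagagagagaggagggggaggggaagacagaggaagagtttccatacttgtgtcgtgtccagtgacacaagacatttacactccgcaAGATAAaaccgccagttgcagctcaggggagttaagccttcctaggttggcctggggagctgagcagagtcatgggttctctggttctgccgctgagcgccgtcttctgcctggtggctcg
Bmp4 (chr15:22101884-22102183, minus strand): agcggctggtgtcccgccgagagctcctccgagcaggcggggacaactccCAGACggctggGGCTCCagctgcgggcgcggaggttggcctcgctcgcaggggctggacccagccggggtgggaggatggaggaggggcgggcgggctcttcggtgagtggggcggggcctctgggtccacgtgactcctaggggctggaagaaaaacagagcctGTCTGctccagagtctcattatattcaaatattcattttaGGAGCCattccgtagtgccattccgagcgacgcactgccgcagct
Id1 (chr3:161671314-161671613, plus strand): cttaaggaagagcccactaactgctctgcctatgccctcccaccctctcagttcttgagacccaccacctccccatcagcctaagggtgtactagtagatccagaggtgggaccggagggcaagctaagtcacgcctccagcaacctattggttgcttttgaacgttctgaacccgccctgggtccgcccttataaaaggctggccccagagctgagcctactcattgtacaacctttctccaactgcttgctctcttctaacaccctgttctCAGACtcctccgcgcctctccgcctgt
Smad7 (chr18:71263258-71263557, plus strand): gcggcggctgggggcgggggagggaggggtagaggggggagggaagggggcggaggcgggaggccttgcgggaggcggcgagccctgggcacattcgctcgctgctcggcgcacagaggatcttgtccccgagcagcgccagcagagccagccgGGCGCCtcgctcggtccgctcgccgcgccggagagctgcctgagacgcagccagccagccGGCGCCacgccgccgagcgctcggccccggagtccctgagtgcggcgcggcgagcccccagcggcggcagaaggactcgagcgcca
The Bmp10 window held AGATAA at 2 places, 248 and 71 bases before the annotated start, and none of the Smad elements. That start falls exactly on an ATG, so it may be the start of translation and not of transcription. The distances and the absent elements of Bmp10 therefore describe only the bases around that point. AGATAA occurred in 11.6% of all 33469 windows. The Bmp4 window held GGAGCC or its reverse complement at 2 places and CAGAC or its reverse complement at 2 places, and the Id1 window held CAGAC once, 24 bases into the transcript. These elements occurred in 27.9% and 50.1% of all windows. The Smad7 window held GGCGCC at 96 and 36 bases before the start, an element in 11.0% of windows. Among the other genes of the 10, GGAGCC or its reverse complement was found in the windows of Id2 and Id3. A match describes the letters only, in the reference assembly and not in HHR or NHR.

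The central comparison asked which BMP genes differ between HHR and NHR hearts. Of the 10 genes 7 were higher in HHR (Bmp10, Bmp4, Smad6, Bmpr1a, Bmpr2, Id2 and Id1), 0 were lower, and Bmp2, Acvrl1 and Id3 did not pass. The test was limma's moderated test with Benjamini-Hochberg adjustment over all 27342 probe sets at 0.05, in which 20.7% of all probe sets were called and 9.64% were called higher. The median difference of the 10 genes was 0.22, against -0.03 over all probe sets. Without the 3 NHR arrays apart, 3 of the 10 genes were called, namely Bmp10, Bmp4 and Smad6. That fit has fewer arrays and so less power, and its share of all probe sets called is not given here. The genes were picked with strain results known, so the count describes them and is not independent evidence of a pathway-wide change.

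**Figure D1:**
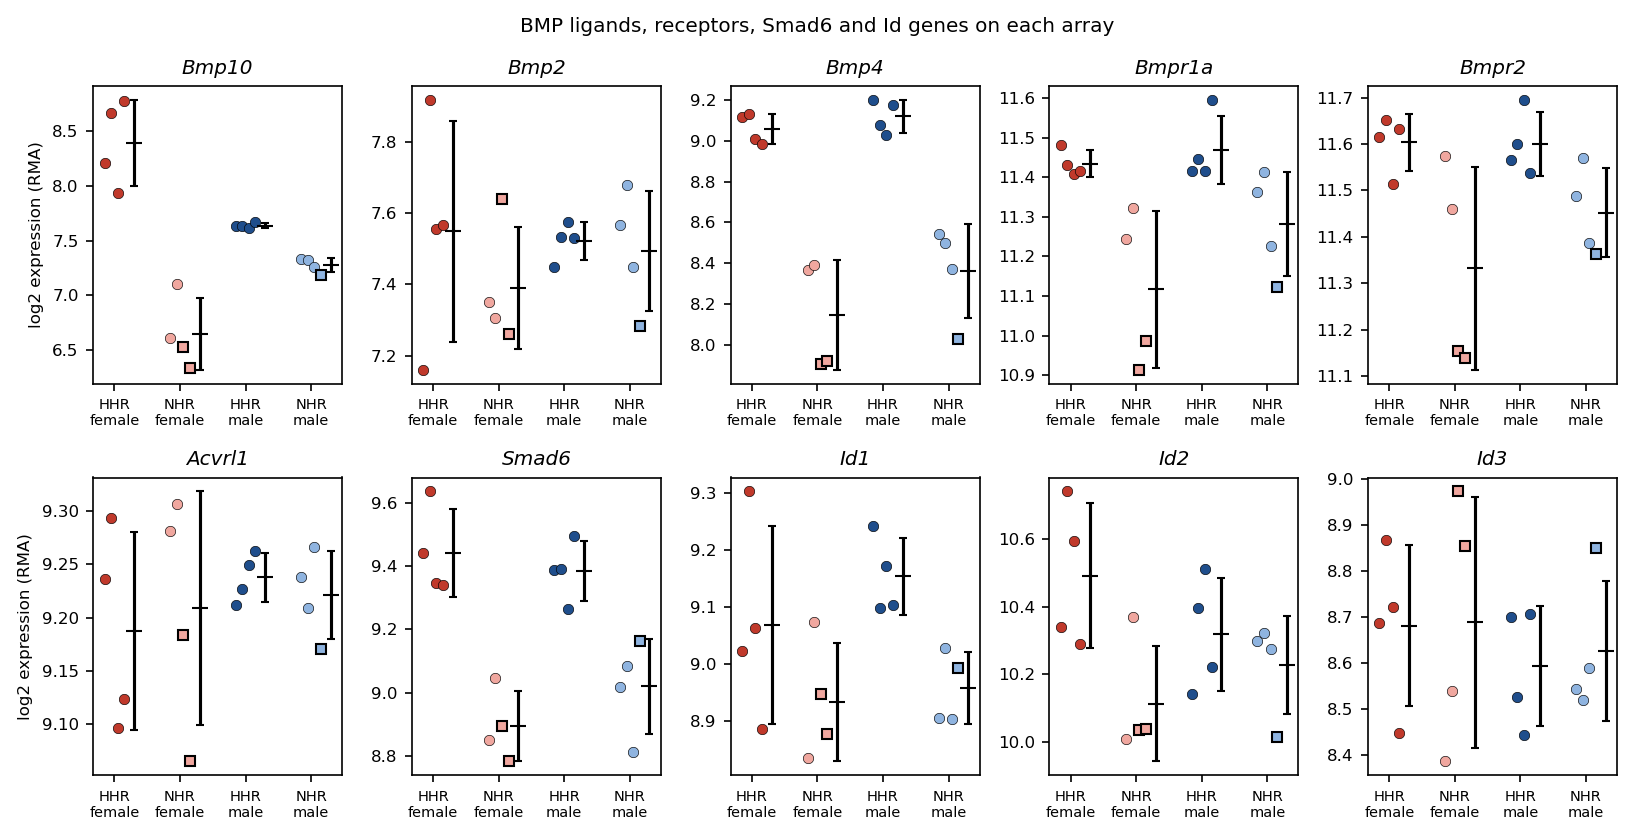
Log2 expression (vertical axis, RMA) of the 10 genes on each of the 16 arrays, by group; bars give the mean and SD of 4 arrays, and outlined squares are NHR female 3, NHR female 4 and NHR male 4. HHR arrays lie above all NHR arrays for Bmp10, Bmp4 and Smad6, and overlap them for the other 7 genes.

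Among the ligands, Bmp10, the growth factor of trabecular and atrial muscle, showed the largest strain difference. HHR females had values of 8.21, 8.66, 7.93 and 8.77, against 6.61, 7.11, 6.53 and 6.34 in NHR females. Those NHR female values all lay below the array medians (7.19 to 7.28), so they were dim and the size of the female difference is less certain. HHR males had 7.63, 7.63, 7.61 and 7.67, against 7.33, 7.32, 7.26 and 7.19 in NHR males. Every HHR array lay above every NHR array, a pattern shown by 1.95% of all probe sets over both sexes, by 8.03% within females and by 5.13% within males. In bulk tissue more cells of a type and more RNA per cell cannot be told apart, nor can a strain variant under a probe and a difference in RNA. The mean was 8.02 ± 0.48 in HHR and 6.96 ± 0.40 in NHR (SD, n = 8 each), which is 2.07-fold (1.05 on the log2 scale, SE 0.11, limma adjusted p = 9.48e-06). Without the 3 NHR arrays apart it was 0.93 (limma adjusted p = 2.57e-04).

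The 4 groups of Bmp10 values were ordered HHR females, HHR males, NHR males and NHR females, with no overlap between neighbours. In all, 5 probe sets (0.0183% of all) had HHR females wholly above HHR males and NHR females wholly below NHR males. That share was not compared with the share expected by chance. In females the strain difference was 1.75 (SE 0.16, limma adjusted p = 4.56e-06), or 3.35-fold, and in males it was 0.36 (SE 0.16, 95% confidence interval 0.03 to 0.69, adjusted p = 0.213), or 1.28-fold. The difference between these effects, males minus females, was -1.38 (SE 0.22, 95% confidence interval -1.85 to -0.91). It had the smallest unadjusted interaction p of all 27342 probe sets, and it did not pass after limma's adjustment (adjusted p = 0.243). No probe set passed the interaction test in limma, while 1390 (5.08%) had an unadjusted p under 0.05. Without the 3 NHR arrays apart the Bmp10 difference in females was 1.53 and the interaction -1.20, their smallest sizes over the alternatives.

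The spread of Bmp10 differed by sex as well. The SD was 0.39 in HHR females and 0.33 in NHR females, against 0.03 in HHR males and 0.06 in NHR males (n = 4 each), and the model uses 1 spread for all 4 groups. With males fitted alone, a setting added after the unequal spread had been seen, the male difference of 0.36 passed (SE 0.06, adjusted p = 0.0127, 2.75% of probe sets called). With females fitted alone the female difference passed too (adjusted p = 0.00135, 9.41% called). With its own spread in each sex, Bmp10 thus passed in both.

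Bmp4, a ligand of cushion and outflow mesenchyme, was the other ligand of the 3 that rose. HHR females had 9.11, 9.13, 9.01 and 8.99, against 8.37, 8.39, 7.91 and 7.92 in NHR females. HHR males had 9.20, 9.08, 9.03 and 9.18, against 8.54, 8.50, 8.37 and 8.03 in NHR males. All 8 HHR arrays lay above all 8 NHR arrays, and the lowest 3 values of all were those of NHR female 3, NHR female 4 and NHR male 4. The mean was 9.09 ± 0.08 in HHR and 8.25 ± 0.26 in NHR (SD, n = 8 each), which is 1.79-fold (0.84 on the log2 scale, SE 0.08, limma adjusted p = 4.69e-06). Without those 3 arrays the difference was 0.66 (SE 0.05, adjusted p = 1.71e-06), and the remaining NHR values, 8.37 to 8.54, still lay below every HHR value.

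Unlike Bmp10, Bmp4 passed in both sexes within the joint fit. Its difference was 0.91 in females (SE 0.12, limma adjusted p = 1.95e-04) and 0.76 in males (SE 0.12, adjusted p = 0.00129), and the interaction was -0.15 (95% confidence interval -0.51 to 0.20, adjusted p = 0.994). Bmp2, the close relative of Bmp4 that patterns the atrioventricular canal, ranged from 7.16 to 7.92 in HHR (median 7.54) and from 7.26 to 7.68 in NHR (median 7.40). Its groups overlapped, and its difference of 0.09 did not pass (95% confidence interval -0.09 to 0.28, adjusted p = 0.493). HHR female 1 held the lowest and HHR female 2 the highest Bmp2 value of all arrays.

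The receptors showed small differences. Bmpr1a, the widely expressed type I receptor of Bmp2 and Bmp4, ranged from 11.41 to 11.60 in HHR (median 11.42) and from 10.91 to 11.41 in NHR (median 11.24). All HHR arrays but HHR female 3 lay above NHR male 2, the highest of NHR, and the difference was 0.25 (SE 0.06, limma adjusted p = 0.00758). Bmpr2, the type II receptor with which these ligands signal, ranged from 11.51 to 11.70 in HHR (median 11.61) and from 11.14 to 11.57 in NHR (median 11.42), and the groups overlapped (difference 0.21, SE 0.06, adjusted p = 0.0226).

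For both receptors the 3 NHR arrays apart held the lowest values of all 16 arrays, 10.91 to 11.12 for Bmpr1a and 11.14 to 11.36 for Bmpr2. Without them the differences were 0.14 (limma adjusted p = 0.0637) and 0.10 (adjusted p = 0.189), and neither passed. Acvrl1, the type I receptor of endothelial cells that binds Bmp10 with high affinity, ranged from 9.10 to 9.29 in HHR (median 9.23) and from 9.06 to 9.31 in NHR (median 9.22). Its difference was -0.00 (95% confidence interval -0.10 to 0.09, adjusted p = 0.977).

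Smad6, which blocks the activated type I receptor and Smad1, was the third gene whose groups did not overlap. HHR females had 9.44, 9.64, 9.35 and 9.34, against 8.85, 9.05, 8.89 and 8.78 in NHR females. HHR males had 9.39, 9.39, 9.26 and 9.49, against 9.02, 9.08, 8.81 and 9.16 in NHR males. The mean was 9.41 ± 0.11 in HHR and 8.96 ± 0.14 in NHR (SD, n = 8 each), which is 1.37-fold (0.46 on the log2 scale, SE 0.06, limma adjusted p = 8.45e-05). Leaving out the 3 NHR arrays gave nearly the same value, 0.45 (adjusted p = 6.28e-04). Smad6 also passed in females (0.55, adjusted p = 9.51e-04) and in males (0.36, adjusted p = 0.0247). The male call was lost without HHR male 1 (0.36), HHR male 2 (0.36), HHR male 4 (0.33), NHR male 1 (0.36) or NHR male 3 (0.30), with an adjusted p of at most 0.0908.

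The 3 Id genes, which encode partners of basic helix-loop-helix factors that cannot bind DNA, did not move alike. Id1 ranged from 8.89 to 9.30 in HHR (median 9.10) and from 8.83 to 9.07 in NHR (median 8.93), with 5 arrays of HHR above all of NHR (difference 0.17, SE 0.06, limma adjusted p = 0.0439). Id2 ranged from 10.14 to 10.74 in HHR (median 10.37) and from 10.01 to 10.37 in NHR (median 10.16), with 4 arrays of HHR above all of NHR (difference 0.23, SE 0.08, adjusted p = 0.0455). Both calls lie close to the threshold: leaving out any of 13 arrays ended that of Id1 and any of 10 arrays that of Id2.

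Without the 3 NHR arrays apart, Id1 differed by 0.16 (limma adjusted p = 0.130) and Id2 by 0.16 (adjusted p = 0.261), so neither passed. Id3 ranged from 8.44 to 8.87 in HHR (median 8.69) and from 8.39 to 8.97 in NHR (median 8.57), and its difference was -0.02 (95% confidence interval -0.20 to 0.16, adjusted p = 0.903). Here the 3 NHR arrays apart were high among NHR, at 8.85 to 8.97 against 8.39 to 8.59 in the other 5. Without them the Id3 difference was 0.13 (adjusted p = 0.243). Its sign is not settled, since it also changed without HHR female 4 alone (0.0194) or HHR male 3 alone (0.0055).

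**Figure D2:**
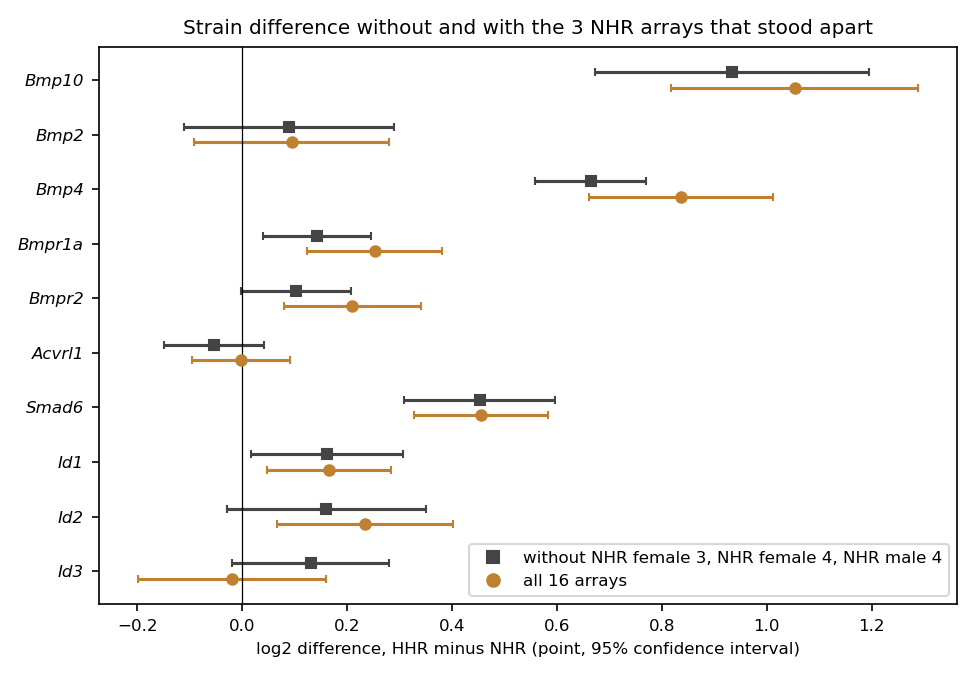
Log2 difference of HHR minus NHR (horizontal axis; points with 95% confidence intervals, not adjusted for the number of genes) for each gene, without the 3 NHR arrays apart (squares) and with all 16 arrays (circles). Bmp10, Bmp4 and Smad6 stay well above 0 in both, Bmpr1a and Bmpr2 move towards 0 without the 3 arrays, and Id3 changes sign.

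By sex, 5 of the 10 genes passed in females (Bmp10, Bmp4, Smad6, Bmpr1a and Id2) and 2 in males (Bmp4 and Smad6), all of them higher in HHR. limma called 5.78% of all probe sets higher in females and 2.03% in males. The count in females was 3 without HHR female 2, NHR female 3 or NHR female 4, and 3 without all 3 NHR arrays apart. Each of these settings has fewer arrays and so less power. With each sex fitted alone in limma, the same genes, Bmp10, Bmp4 and Smad6, passed in females and in males. In females fitted alone Bmpr1a (adjusted p = 0.0518) and Id2 (adjusted p = 0.0621) did not pass. That setting called 9.41% of all probe sets in females and 2.75% in males. The size of the difference was larger in females for 8 of the 10 genes, and also for 8320 of the 14324 single-symbol genes. No gene of the 10 passed the interaction test: outside Bmp10 the lowest unadjusted p was 0.0884 for Id2 (0.38 in females, 0.09 in males, adjusted p = 0.994). The apparent difference between the sexes in the number of calls is therefore not a tested difference for those 9 genes. None of the 10 differed between males and females averaged over the strains in limma (0 past the threshold, where 3 probe sets, 0.0110% of all, were called, and 1749, or 6.40%, had an unadjusted p under 0.05).

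**Figure D3:**
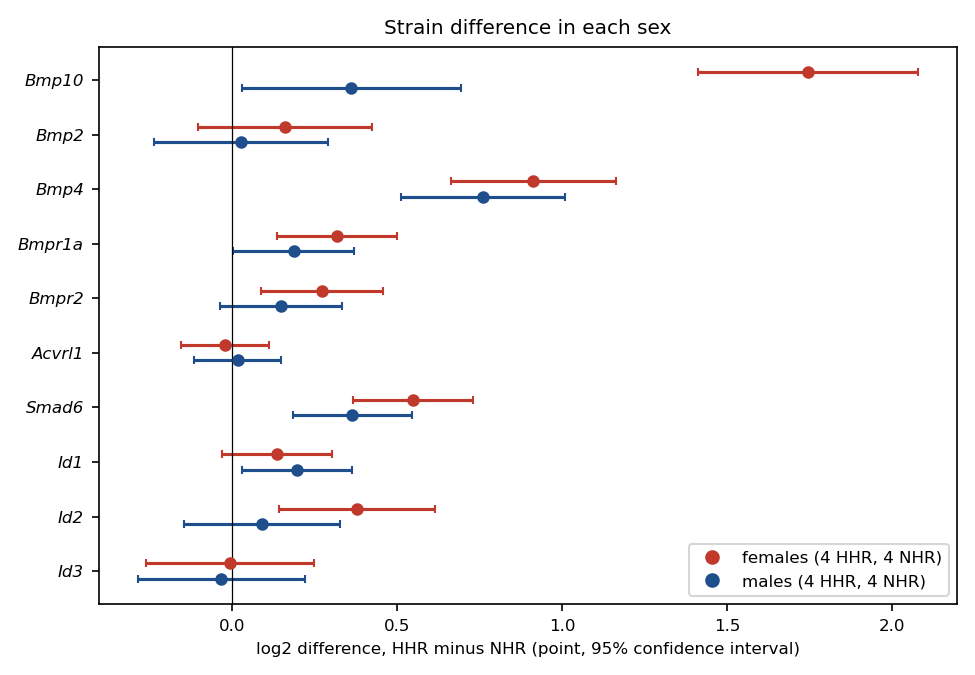
Log2 difference of HHR minus NHR (horizontal axis; points with 95% confidence intervals, not adjusted for the number of genes) in females and in males, 4 arrays per strain and sex. The interval of Bmp10 in females lies wholly above that in males, and for the other 9 genes the 2 intervals overlap.

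The wider pathway was read from 6 lists of BMP genes drawn from general knowledge, which include the 10 genes. Of 63 listed genes 53 had a single-symbol probe set, and 14 of these were higher in HHR, 2 were lower and 37 did not pass. Their median difference was 0.07, against -0.02 over all 14324 single-symbol genes, of which 1697 were higher and 1609 lower. Of the 43 genes outside the 10, 7 were higher, 2 were lower and 34 did not pass, with a median of 0.03. Over all probe sets 9.64% were called higher and 11.0% lower. Without the 3 NHR arrays apart, 9 of the 53 were higher and 2 lower, and the 5 calls lost were those of Bmpr1a, Bmpr2, Id1, Id2 and Msx2. Having fewer arrays also lowers the power of that fit.

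Several ligands were higher in HHR. Of 10 measured, 5 were higher and 0 lower, where 9.64% of all probe sets were called higher and 11.0% lower. The median difference of the 10 ligands was 0.21. Beside Bmp10 and Bmp4 these were Bmp6 (difference 0.52, SE 0.12, limma adjusted p = 0.00414), Bmp5 (0.46, SE 0.07, adjusted p = 4.11e-04) and Bmp7 (0.25, SE 0.05, adjusted p = 0.00357). Bmp5, Bmp6 and Bmp7 form a subfamily, and in the mouse they act in cushion and myocardial development. Bmp6 ranged from 9.51 to 10.37 in HHR and from 9.14 to 9.85 in NHR, so its groups overlapped, as did those of Bmp5 (5.84 to 6.35 in HHR, 5.56 to 5.87 in NHR) and Bmp7 (10.70 to 11.03 in HHR, 10.34 to 10.72 in NHR). Every Bmp5 value lay below the array medians (7.19 to 7.28), so Bmp5 was dim in both strains and its difference is less certain.

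Of 5 measured inhibitors that act inside the cell, 3 were higher and 0 lower, where 9.64% of all probe sets were called higher and 11.0% lower. Bambi, a decoy receptor without a kinase domain, was higher by 0.35 (SE 0.06, limma adjusted p = 5.20e-04), and 7 arrays of HHR exceeded all of NHR. Smad7, which inhibits both BMP and TGF-beta receptors, was higher by 0.23 (SE 0.06, adjusted p = 0.00994), and Smad6 was described above. The ubiquitin ligase Smurf2 differed by -0.04 (adjusted p = 0.543).

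None of the 4 signal-carrying Smads passed in limma. Smad4, the shared partner, differed by 0.10 (95% confidence interval -0.00 to 0.20, limma adjusted p = 0.154), Smad9 by 0.05 (adjusted p = 0.626) and Smad1 by -0.03 (adjusted p = 0.771). Of 9 measured receptors and co-receptors, 2 were higher, both among the 10 genes, and 0 lower, where 9.64% of all probe sets were called higher. Acvr1, another type I receptor, differed by 0.18 (adjusted p = 0.0612), Acvr2b, a type II receptor, by -0.06 (adjusted p = 0.447), and Rgma, a co-receptor, by 0.07 (adjusted p = 0.591). The phosphorylation that switches the Smads on is not measured by an RNA array.

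Of 15 extracellular regulators 1 was higher and 2 were lower, where 9.64% of all probe sets were called higher and 11.0% lower, so the count is near the background. Chrdl1, a chordin-like antagonist that binds BMPs, was higher by 0.52 (SE 0.11, limma adjusted p = 0.00264), ranging from 8.86 to 9.53 in HHR and from 8.41 to 9.07 in NHR. Furin, a protease that cleaves BMP precursors, fell by 0.17 (SE 0.04, adjusted p = 0.00702), with 7 HHR arrays below the lowest NHR array. Bmp1, which despite its name is a metalloprotease that cuts chordin and procollagen, fell by 0.15 (SE 0.04, adjusted p = 0.0220). Among 10 measured target genes 3 were higher and 0 lower: Id1, Id2 and the homeobox gene Msx2 (0.21, SE 0.05, adjusted p = 0.0115). Every Msx2 value (6.35 to 6.95) lay below the array medians (7.19 to 7.28), so Msx2 was dim and its difference is less certain. Hey1, a repressor shared with the Notch pathway, differed by -0.14 (adjusted p = 0.0961) and the iron hormone gene Hamp by 0.20 (adjusted p = 0.105).

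**Figure D4:**
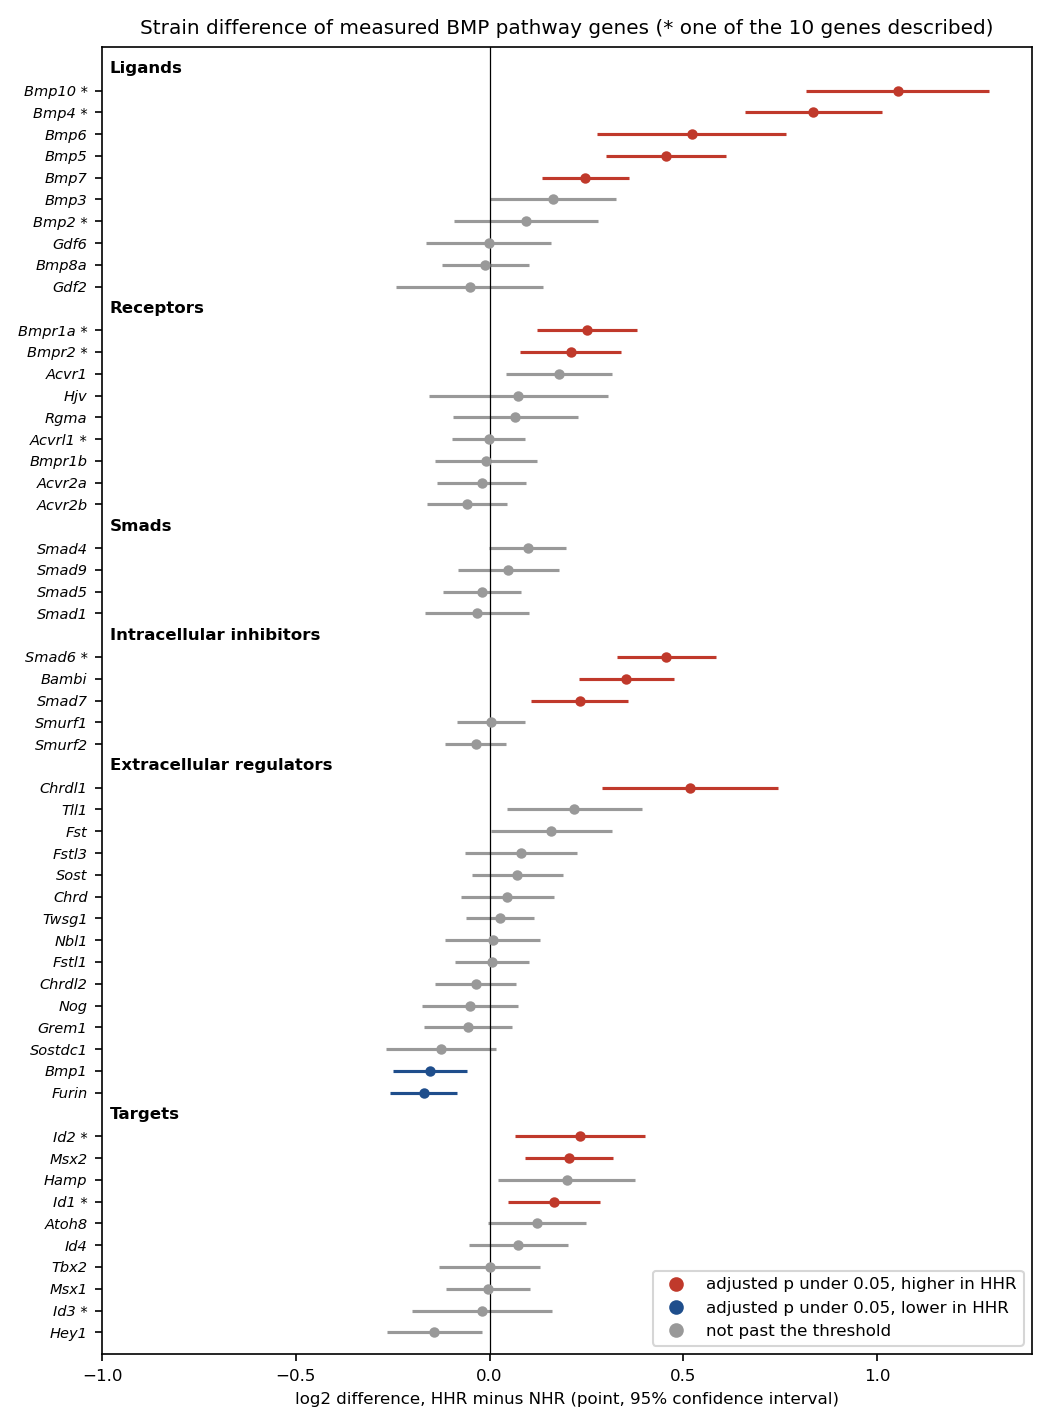
Log2 difference of HHR minus NHR (horizontal axis; points with 95% confidence intervals, not adjusted for the number of genes) for the 53 measured genes of the 6 BMP lists, grouped by role, with asterisks on the 10 genes described. Of 10 ligands 5 and of 5 intracellular inhibitors 3 were higher in HHR, and none of the 4 signal-carrying Smads was called. For all probe sets the share called higher was 9.64%.

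Genes known to act with Bmp10 were examined next. Of 7 listed, 4 had a single-symbol probe set, and 2 of these were lower in HHR, where 11.0% of all probe sets were called lower. Cdkn1c, a cell cycle inhibitor that rises in mouse hearts without Bmp10, was lower in HHR: it averaged 7.83 ± 0.09 in HHR and 8.19 ± 0.20 in NHR (SD, n = 8 each; difference -0.37, SE 0.07, limma adjusted p = 0.00214). All HHR arrays but 1 lay below every NHR array. Myocd, a coactivator of muscle genes that promotes Bmp10 expression in the mouse, fell by 0.23 (SE 0.04, adjusted p = 0.00135). Tbx20, a cardiac factor placed downstream of Bmp10 in the mouse, differed by -0.12 (adjusted p = 0.0625), and Nkx2-5, which depends on Bmp10 in mouse, by 0.03 (adjusted p = 0.8).

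Bmp10 is an atrial gene after birth, and the labels disagree on whether atria were included, so atrial markers are given beside it. Of 10 measured atrial markers 4 were higher in HHR, 1 was lower and 5 did not pass, where 9.64% of all probe sets were called higher and 11.0% lower. The summed signal of these markers on the linear scale ran from 23650 to 29255 in HHR and from 19880 to 24536 in NHR. That sum is weighted towards the brightest of them, Nppa and Myl7. The mean of their log2 values overlapped between the strains (9.66 to 10.26 in HHR, 9.56 to 9.93 in NHR). Sln, an inhibitor of the calcium pump that is abundant in atria, was at 7.79, 10.50, 8.47 and 8.52 in HHR females, against 8.05, 8.00, 8.32 and 7.57 in NHR females. It was at 7.83, 8.23, 8.46 and 9.76 in HHR males, against 8.79, 8.75, 9.69 and 7.65 in NHR males.

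The groups overlapped for Sln, and its strain difference of 0.34 did not pass (SE 0.35, 95% confidence interval -0.40 to 1.09, limma adjusted p = 0.540). Myl7, the atrial myosin light chain, differed by 0.07 (adjusted p = 0.565). The array with the highest Sln value, HHR female 2, had Bmp10 at 8.66, and the array with the lowest, NHR female 4, had the lowest Bmp10 value of all. Next in Sln came HHR male 4 and NHR male 3, with Bmp10 at 7.67 and 7.26. Other atrial genes did differ: Kcnj3 was higher by 0.57 (adjusted p = 0.00227) and Kcnj5 by 0.52 (adjusted p = 3.63e-04), both subunits of the acetylcholine-gated potassium channel. Dkk3 was higher by 0.21 (adjusted p = 0.0439), and Kcna5, a potassium channel of atrial muscle, fell by 0.34 (adjusted p = 0.0302), with 6 HHR arrays below all of NHR. Nppa, the atrial natriuretic peptide gene, was higher by 0.34 over both sexes (limma adjusted p = 2.88e-04). Its difference was 0.52 in females (adjusted p = 4.81e-04), and that of 0.16 in males did not pass (adjusted p = 0.236). The interaction of Nppa, -0.36, did not pass either (adjusted p = 0.964). The part of atrial tissue in the Bmp10 difference was not tested.

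**Figure D5:**
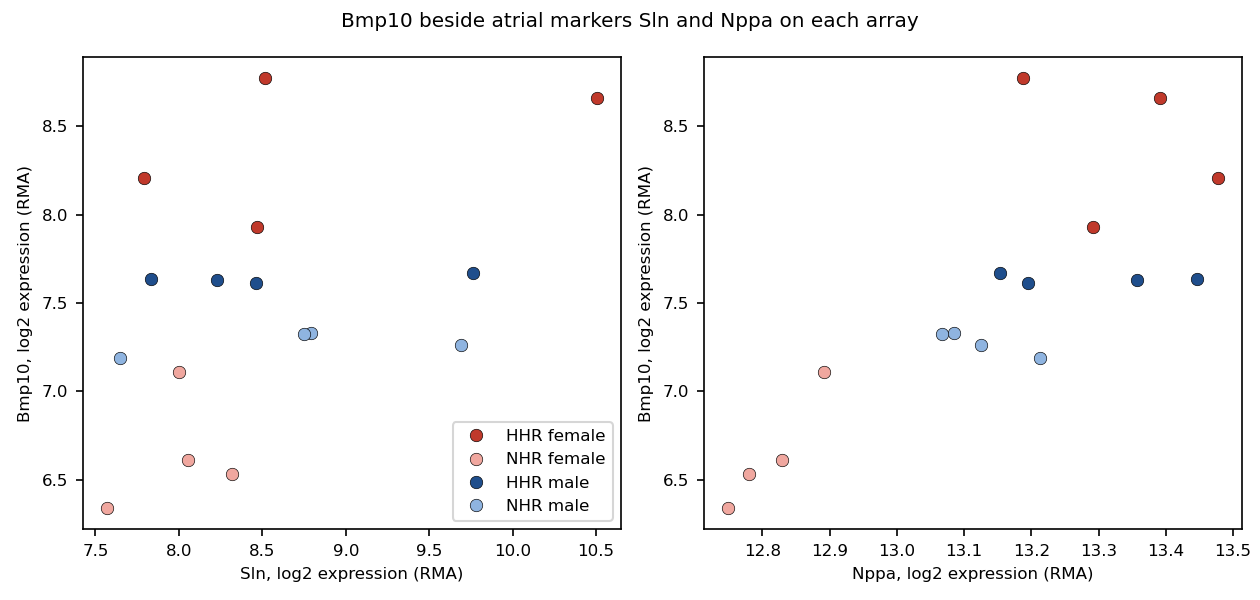
Log2 expression of Bmp10 (vertical axes) against that of the atrial markers Sln (left) and Nppa (right) on each of the 16 arrays, coloured by group. The groups overlap in Sln, HHR female 2 is highest in Sln (10.50), NHR female 4 is lowest in Sln (7.57) and in Bmp10 (6.34), and NHR females are lowest for both Bmp10 and Nppa.

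Markers of other cell types that make or receive BMP signals are given next. Over all probe sets 9.64% were called higher and 11.0% lower. Of 9 endothelial markers 6 were lower and 1 higher, with a median of -0.16, and Cldn5, a tight junction gene, fell by 0.41 (limma adjusted p = 6.80e-05). Of 8 fibroblast markers 3 were higher and 0 lower, among them Col1a2 by 0.19 (adjusted p = 0.00579). Of 6 epicardial markers 2 were higher and 0 lower, among them Aldh1a2 by 0.48 (adjusted p = 8.45e-04). Of 6 mural markers 2 were higher and 1 lower, with Notch3 higher by 0.19 (adjusted p = 0.00819), a call that ended when those 3 NHR arrays were left out (0.16, adjusted p = 0.0668).

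Of 6 cardiomyocyte genes 4 were lower and 0 higher, among them Ttn at -0.24 (limma adjusted p = 7.36e-04), and of 5 ventricular genes 3 were lower and 0 higher, with Myl2 at -0.14 (adjusted p = 0.0206) and Irx4 at -0.14 (adjusted p = 0.0550). Of 6 trabecular and conduction genes 1 was higher, Sema3a by 0.17 (adjusted p = 0.0328, lost on leaving out any of 10 arrays), and 0 were lower. Of 7 leukocyte markers 1 was higher and 1 lower, which was Ptprc at -0.27 (adjusted p = 6.00e-04). With 9.64% of all probe sets called higher and 11.0% lower, the trabecular and leukocyte counts are near the background. Of 5 erythroid markers 2 were higher and 2 lower, namely Hbe1 at 0.76 (adjusted p = 0.00900), Hbb at 0.45 (adjusted p = 0.00433), Slc4a1 at -0.34 (adjusted p = 0.00673) and Epb42 at -0.55 (adjusted p = 9.35e-05). Globin genes have near-identical copies, so the values of Hbb and Hbe1 are uncertain. Leaving out those 3 NHR arrays ended the call of Myl2 (-0.10, adjusted p = 0.125). The part of these cell types in the BMP differences was not tested.

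Whether pups with more ligand RNA also had more target RNA was asked within groups. Deviations from the group means of Bmp10, Bmp2 and Bmp4 were set against those of Smad6, Id1, Id2 and Id3 over the 16 arrays, in 12 pairs tested by permuting pups within groups (100000 permutations, two-sided). None of the 12 passed after Benjamini-Hochberg adjustment over the pairs, and 0 had an unadjusted permutation p under 0.05. For Bmp10 and Smad6 Pearson's r was 0.42 (permutation p = 0.173, adjusted p = 0.520) and Spearman's rho 0.45 (p = 0.116, adjusted p = 0.633), and r was 0.21 without HHR female 3 and NHR female 2. For Bmp4 and Smad6 r was 0.20 (permutation p = 0.524, adjusted p = 0.663) and rho 0.32 (p = 0.285, adjusted p = 0.633), and r was 0.56 without NHR female 3 and NHR male 4.

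The strongest pair was Bmp4 with Id3, at r = -0.60 (permutation p = 0.0957, adjusted p = 0.520) and rho = -0.48 (p = 0.157, adjusted p = 0.633). Without NHR female 3 and NHR male 4 its r was -0.36. Without all 3 NHR arrays apart it turned to 0.63 (adjusted permutation p = 0.295, 13 arrays), so its sign rests on them. On the same 13 arrays Bmp4 and Smad6 reached r = 0.79 (permutation p = 0.00395, adjusted p = 0.0474), the only pair of the 12 past the threshold there.

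By the same measure, the genes on the array most like Bmp10 within groups were Bmp2k (Pearson's r = 0.82), Pdzd2 (0.80), Cpt1a (0.78), Kdm2a (0.77) and Trim44 (0.76), over 16 arrays and among the brighter 7162 single-symbol genes. Of these 5, Trim44 alone passed the strain test (difference 0.22, limma adjusted p = 0.0393). The genes most like Id1 were Lmna (0.80), Pnp (0.79), Bace2 (0.79), Ggh (0.79) and Smad7 (0.79), the last being the inhibitor of the wider list. These are the highest values among all candidates and are given as a description.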

How the data were processed

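RNA from 16 neonatal rat hearts was measured on 1 array each, from total RNA of frozen tissue (miRNeasy), per the labels' protocols. The authors deposited log2 values made with RMA, which corrects background, normalizes between arrays and summarises probes, per the submitters' processing notes. Those notes also list limma. Versions, filters and the annotation build are not given in the sources used here. Every one of the 16 columns of values was used (0 left out). Of 27342 probe sets 15097 carried a single gene symbol in the platform annotation, 323 several and 11922 none.

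Groups and replicate numbers came from the sample titles. limma 3.58.1 in R 4.3.3 was fitted to all probe sets with a mean per group, moderated and adjusted by Benjamini-Hochberg (threshold 0.05). SE and 95% confidence intervals are the model's. Nothing says that the pups came from separate litters, so p-values measure the spread between these pups. The number of arrays limits the precision. The fit and the correlation test were tested on simulated data.

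The members and lists were chosen with earlier results of these data known. The named genes were the 10 members, the 3 further genes with the smallest adjusted p in each BMP list and the Bmp10 list, Sln, Myl7, Nppa and the 3 best atrial markers, Myl2, Irx4, 1 gene per other cell type list, and the 5 most like Bmp10 and Id1. Actc1, Tnnt2, Nkx2-5, Kcna5, Dkk3, Hbe1, Hbb and Slc4a1 were chosen after their values were seen, and they were not followed through the alternatives. Alternatives covered filtering, normalization, moderation, weights, the replicate number as a block, left-out arrays, the threshold and a fit of each sex alone. Deviations of same-numbered pups were weakly related and mostly above 0 (r from -0.11 to 0.37 over 24 pairs, 11 above 0.1). A factor shared by replicate number was not tested. The main fit did not treat them as pairs, and the fit with a block is given below.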

Additional observations from a re-analysis of the deposited data

Results flagged for a closer look

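Bmp10 differed between the sexes in opposite directions in the 2 strains. In HHR all 4 females (7.93 to 8.77) lay above all 4 males (7.61 to 7.67), and in NHR all 4 females (6.34 to 7.11) lay below all 4 males (7.19 to 7.33). This pattern was shown by 5 of 27342 probe sets (0.0183%), a share not compared with that expected by chance. The interaction was -1.38, first of all probe sets by unadjusted p (8.90e-06), and it did not pass over all of them (limma adjusted p = 0.243). It passed without HHR female 3 (-1.54, adjusted p = 0.0174) or NHR female 2 (-1.54, adjusted p = 0.0176). Over all arrays left out in turn the adjusted p ran from 0.0174 to 0.831.

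Id2 had an array far from the rest of its group in 2 of the 8 NHR arrays. NHR female 2 was at 10.37, against 10.01 to 10.04 in the other NHR females, and NHR male 4 was at 10.01, against 10.28 to 10.32 in the other NHR males. Chance flags about 1 in 20 groups of 4, and 40 groups (10 genes in 4 groups) were examined, of which these are 2. NHR male 4 is 1 of the 3 NHR arrays apart.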

How the results depend on the processing

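Bmp10, Bmp4 and Smad6 were higher in HHR and past the threshold in all 27 alternatives for the strain difference. Bmpr1a lost its call without the 3 NHR arrays apart (0.14), and Bmpr2 lost it there (0.10), after quantile normalization (0.17) and at a threshold of 0.01 (0.21). Id1 lost it without the 3 arrays (0.16) and at 0.01 (0.17). Id2 lost it after quantile normalization (0.20) or cyclic loess (0.21), with array weights (0.22), in the additive model (0.23), at 0.01 (0.23) and without the 3 arrays (0.16). With arrays left out in turn, Id1 ranged from 0.13 to 0.20 and kept its call only without HHR female 4 (0.20), NHR female 2 (0.19) or NHR male 2 (0.18). Id2 ranged from 0.19 to 0.28 and kept it only without HHR female 1 (0.26), HHR female 4 (0.27), HHR male 1 (0.26), HHR male 4 (0.25), NHR female 2 (0.28) or NHR male 2 (0.25). Uncalled values near 0 changed sign: Acvrl1 after median centring (0.0200) or cyclic loess (7.24e-04) and with arrays left out in turn (-0.0267 to 0.0137), Id3 after median centring (0.00294), with array weights (0.0366), without the 3 arrays (0.13) and with arrays left out in turn (-0.0701 to 0.0280), and Rgma without the 3 arrays (-0.0419).

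The 7 called genes became 3 without the 3 NHR arrays apart and 4 at 0.01, and probe sets called for strain became 2893 at 0.01. They ranged from 4651 to 6402 with arrays left out, and probe sets called for the interaction from 0 to 1. With the replicate number as a block, 7 of the 10 genes, 17 pathway genes and 6145 probe sets were called, and it changed no strain call of the 10 genes. In females it called 6 of the 10 genes, against 5 without it. Across pups, the correlation of Bmp4 turned to -0.12 with Id2 and to 0.63 with Id3 without the 3 arrays. With arrays left out, weak correlations crossed 0: Bmp10 with Id1 (-0.00311 to 0.704) and Id2 (-0.0402 to 0.555), Bmp2 with Smad6 (-0.185 to 0.387), Id1 (-0.0934 to 0.495) and Id3 (-0.126 to 0.292), and Bmp4 with Id1 (-0.0145 to 0.330). The mean over several probe sets was not run, as each gene had 1. The causes were not tested. No background signal was used here, so dim probe sets cannot be told from absent ones.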
